A study of Mus musculus with 16 samples.

Results

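The oligosaccharyltransferase is the enzyme complex of the endoplasmic reticulum membrane that puts the first sugar tree on secreted and membrane proteins, and 10 genes that encode its subunits were followed here in muscle and fat of exercised mice. They are Stt3a, Stt3b, Rpn1, Rpn2, Ddost, Dad1, Ostc, Krtcap2, Tusc3 and Magt1, found by symbol among the 55536 genes of the counts table, of which 33602 had a count in any library. The group was chosen by a measured value, since Stt3b had passed the test for genotype in fat once the library of control mouse 138 was left out. The difference of these genes between genotypes in fat is therefore given as a description without p-values, and counts of calls there restate or share that choice. Tests are given for muscle and for muscle against fat.

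The knockout group was labelled Conditional MusMyD88-/-, a deletion of MyD88 restricted to muscle, and the comparison group was labelled Cre-Control. Each genotype was represented by 4 female mice, with 1 library from the red portion of the gastrocnemius and 1 from visceral fat of each mouse, 16 libraries in all. Every mouse, control mice included, had a wheel to run on for 5 weeks and was then kept for 8 days in a small cage that limited its movement. The promoter that drives Cre, the deleted part of Myd88, the age of the mice and the alleles of the controls are not stated in the sources that were used. Libraries of both tissues with the same subject number were taken as 1 mouse.

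In this complex the catalytic subunit STT3A or STT3B moves a preassembled glycan from its dolichol carrier to asparagines of a protein that is being made. The STT3A form is joined to the translocon through OSTC and KRTCAP2 and works while the chain enters the lumen. The STT3B form carries the oxidoreductase TUSC3 or MAGT1 and glycosylates sites that the STT3A form skipped, and RPN1, RPN2, DDOST and DAD1 belong to both forms. These roles were worked out largely in human cells and yeast.

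The promoters of both catalytic genes are shown because the text turns on the contrast between Stt3b and Stt3a. Each runs from 250 bases before the RefSeq start (assembly GRCm38.p6) towards it, from 5′ to 3′ on the gene's own strand, which is the minus strand of chromosome 9 for both. The last 57 bases before the RefSeq start of Stt3a lie inside the gene as GENCODE M21 draws it and were left off. Capitals mark the CCAAT box, a motif read by the factor NF-Y, in either orientation.
Stt3a, chr9:36767680-36767872: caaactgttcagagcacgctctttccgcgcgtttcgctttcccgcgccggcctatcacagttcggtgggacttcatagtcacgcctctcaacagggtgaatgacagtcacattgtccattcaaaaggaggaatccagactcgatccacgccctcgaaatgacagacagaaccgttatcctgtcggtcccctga
Stt3b, chr9:115310469-115310718: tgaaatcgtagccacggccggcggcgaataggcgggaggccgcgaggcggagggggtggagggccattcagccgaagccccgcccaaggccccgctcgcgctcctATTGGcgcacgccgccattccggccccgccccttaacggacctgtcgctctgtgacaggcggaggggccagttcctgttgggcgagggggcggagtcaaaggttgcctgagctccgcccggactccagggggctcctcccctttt
Bases G and C made up 53.9% of the Stt3a stretch and 70.4% of the Stt3b stretch. The GC box, GGGCGG on either strand, was found 4 times in the Stt3b stretch and 0 times in the Stt3a stretch. The 1 CCAAT box of Stt3a lay in the 57 bases left off.

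RefSeq promoter windows of 300 bases, the 250 before the start and the 50 after it, were matched for 8 subunits, with Ostc and Tusc3 unmatched. CCAAT on either strand occurred in at least 1 window of 8 of the 8 genes, against 41.1% of 27025 genes in the same table. The GC box occurred in 6 of the 8, all but Stt3a and Magt1, against 38.2% of genes. Neither TATAAA (15.7% of genes), TGACGTGG (the unfolded protein response element, 0.7% of genes) nor the ER stress element (0.1% of genes), which begins with the CCAAT letters, occurred in any of these windows. The letters are a description of the windows and say nothing about binding.

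Sequencing gave between 15203806 and 21747345 counts per muscle library, and between 13242243 and 19114782 per fat library. The 10 subunits had between 30 and 7564 counts in a library. Levels are CPM, the counts scaled to a common library size with TMM factors over all 16 libraries, which align most genes between libraries. Myd88 averaged 2.94 ± 0.33 CPM in knockout muscle and 4.03 ± 0.98 CPM in control muscle (SD, n = 4 each), with overlapping groups and 31 to 65 counts per library, and its log2 fold change of -0.47 (SE 0.20) did not pass edgeR's quasi-likelihood test (adjusted p = 0.949). In fat it averaged 10.3 ± 0.81 CPM in knockout mice and 10.8 ± 0.84 CPM in control mice (SD, n = 4 each). One control library of fat, from mouse 138, differed widely from the rest. Its 5 smooth muscle markers summed to 20051 CPM, where knockout fat had 344 to 921 CPM and the other control fat libraries 361 to 566 CPM. Its 4 urothelial markers summed to 1814 CPM (10.9 to 31.8 CPM in knockout fat, 13.1 to 19.6 CPM in the other controls) and its 6 adipocyte markers to 5062 CPM (18799 to 20173 CPM in knockout fat, 18425 to 22891 CPM in the other controls). Results in fat are therefore given with and without it. In muscle, the libraries of control mice 131 and 11 held 27974 and 19833 CPM (of total counts) of the ribosomal RNA gene CT010467.1, named after its values were seen, against 16.8 to 35.2 CPM in the other 6. All 6 skeletal muscle markers were detected in each muscle group and all 6 adipocyte markers in each fat group.

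Stt3b encodes the catalytic subunit that acts mainly after translation. In muscle it was measured at 104, 99.9, 105 and 107 CPM in the knockout libraries, against 137, 121, 123 and 112 CPM in the control libraries. With these TMM factors the highest knockout value lay under the lowest control value, by a small margin. By total counts alone the groups overlapped, with 72.1 CPM in knockout mouse 29 and 70.6 CPM in control mouse 11. Stt3b averaged 104 ± 2.93 CPM in knockout muscle and 123 ± 10.4 CPM in control muscle (SD, n = 4 each). Its log2 fold change was -0.25 (SE 0.08), with an unadjusted p of 0.00544 and an adjusted p of 0.907 in edgeR's quasi-likelihood test over 14183 genes, so it did not pass. A two-sided exact permutation test on log2(CPM + 0.5) gave p = 0.0286, the smallest value that 4 libraries against 4 allow. That value is unadjusted and follows from the groups not overlapping with TMM factors, so it adds nothing to that. The same exact permutation test gave the other subunits p from 0.143 to 0.943. Among all genes tested in muscle, 1.26% had every knockout library below every control library. Without control mice 131 and 11 the log2 fold change was -0.25 (adjusted p = 1, edgeR). Over all the alternatives it lay between -0.29 and -0.17, with adjusted p from 0.516 to 1.

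The second catalytic gene, Stt3a, was the steadiest of the 10 in muscle. It read 43.4, 44.0, 42.9 and 40.8 CPM in knockout muscle, against 43.2, 40.7, 42.4 and 44.5 CPM in control muscle. The groups covered the same narrow range, with means of 42.8 ± 1.39 CPM in knockout mice and 42.7 ± 1.57 CPM in control mice (SD, n = 4 each) and a log2 fold change of -0.0046 (SE 0.07). Of the 10 subunits, 0 passed the adjusted threshold of 0.05 for genotype in muscle by edgeR and 0 by DESeq2, where 0.0141% of all genes passed by edgeR and 0.0705% by DESeq2. At an unadjusted p under 0.05, 1 of 10 passed, Stt3b, where 5.04% of all genes did. The median log2 fold change of the 10 was 0.04, against 0.00 over all genes tested.

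The shared subunits did not pass for genotype in muscle either, and their groups overlapped. Rpn1, a ribophorin that binds ribosomes and substrates near the catalytic site, read 71.4, 59.7, 52.2 and 58.7 CPM in knockout muscle, against 71.6, 59.1, 61.7 and 61.1 CPM in control muscle (log2 fold change -0.08, SE 0.09). Rpn2, the second ribophorin, read 82.9, 73.8, 74.0 and 71.6 CPM in knockout muscle, against 77.6, 62.7, 82.7 and 70.2 CPM in control muscle (log2 fold change 0.04, SE 0.09). In both genes a single mouse of each genotype reached the top of the range. Ddost, which helps to hold the complex together, read 38.7, 35.3, 32.1 and 33.0 CPM in knockout muscle, against 31.7, 29.4, 33.4 and 32.5 CPM in control muscle (log2 fold change 0.12, SE 0.08). Dad1, a small subunit first known as a defender against cell death, read 16.2, 15.0, 13.4 and 14.2 CPM in knockout muscle, against 15.4, 14.1, 14.8 and 15.4 CPM in control muscle (log2 fold change -0.03, SE 0.10). Control values of Dad1 lay within the range of the knockout values.

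The subunits of the separate forms showed the same in muscle. Ostc, of the STT3A form, read 17.1, 13.9, 13.1 and 14 CPM in knockout muscle, against 10.9, 10.2, 15.0 and 14.9 CPM in control muscle (log2 fold change 0.17, SE 0.14). The low control values of Ostc came from mice 131 and 137. Krtcap2, which joins the same form, read 13.1, 12.3, 13 and 12.1 CPM in knockout muscle, against 11.7, 12.7, 13.3 and 11.0 CPM in control muscle (log2 fold change 0.04, SE 0.10). Tusc3, an oxidoreductase of the STT3B form, was the lowest, with 3.85, 2.63, 3.87 and 4.62 CPM in knockout muscle, against 3.32, 2.54, 4.57 and 3.81 CPM in control muscle (log2 fold change 0.06, SE 0.22). Those values rest on 30 to 68 counts per library, which gives the widest error among the 10. Magt1, the alternative to Tusc3, read 68.1, 60.8, 55.6 and 58.2 CPM in knockout muscle, against 59.2, 51.2, 65.7 and 59.6 CPM in control muscle (log2 fold change 0.03, SE 0.09).

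**Figure D1:**
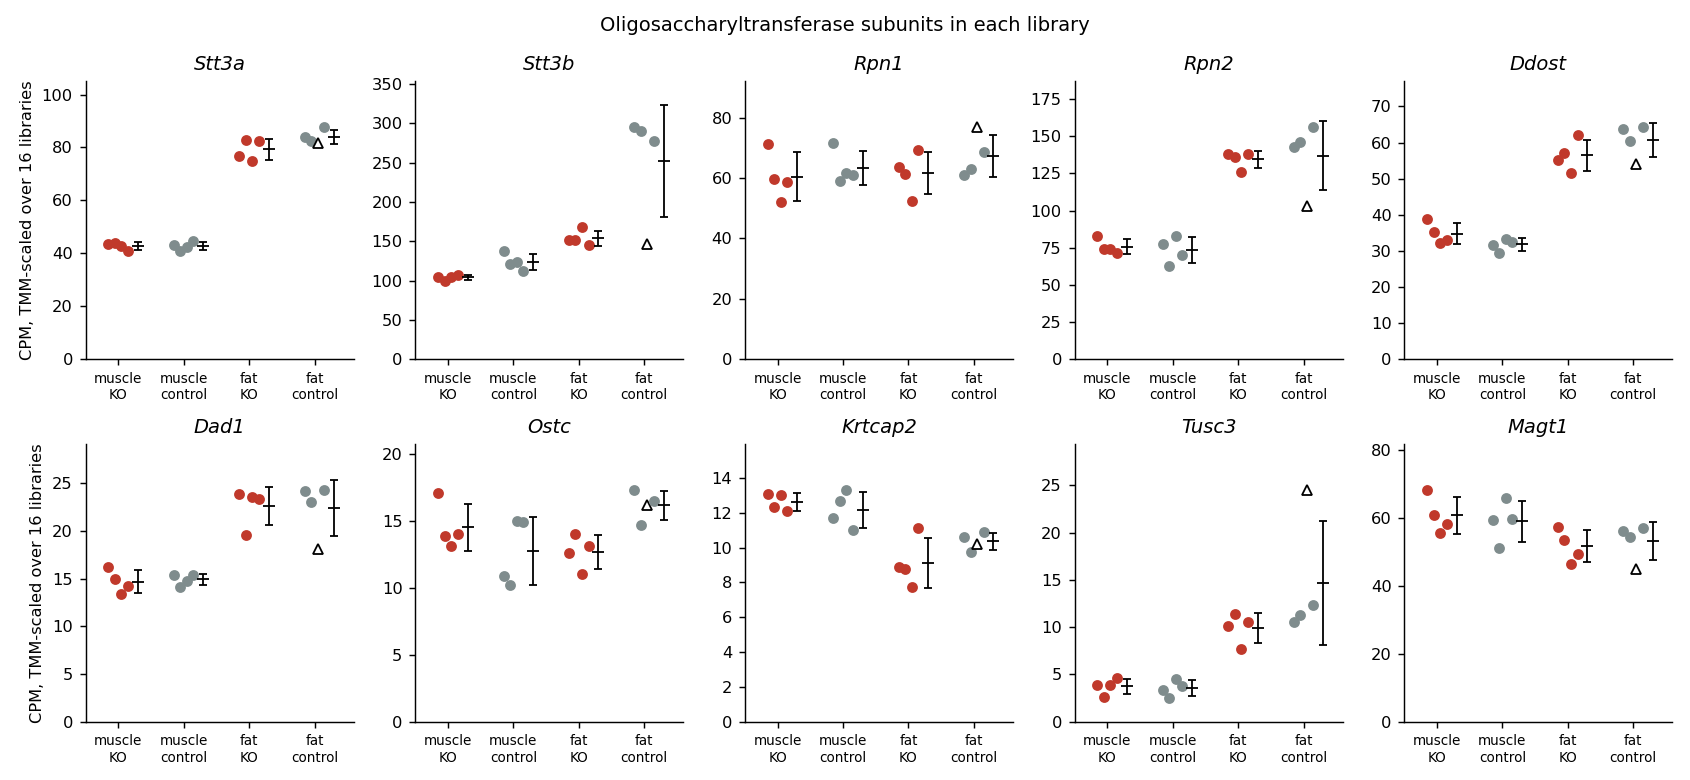
CPM (TMM-scaled over 16 libraries, linear axis from 0) of the 10 subunits in each library of knockout (red) and control (grey) mice, with mean ± SD beside the 4 points of each group and the fat library of control mouse 138 as an open triangle. Stt3b in fat lies at 145 to 168 CPM in knockout libraries and at 278 to 295 CPM in control libraries, apart from mouse 138 at 146 CPM.

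In fat, the contrast that led to the choice of these genes, Stt3b read 151, 151, 168 and 145 CPM in the knockout libraries, against 295, 290, 146 and 278 CPM in the control libraries. The control library within the knockout range was that of mouse 138. Stt3b averaged 154 ± 10.1 CPM in knockout fat (SD, n = 4), against 252 ± 71.2 CPM in control fat (SD, n = 4) and 288 ± 8.89 CPM without mouse 138 (SD, n = 3). The log2 fold change was -0.71 (SE 0.22) with all mice and -0.90 (SE 0.08), or 1.87-fold lower, without mouse 138. The muscle library of mouse 138 read 123 CPM of Stt3b, within the range of the other control muscle libraries.

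Stt3a did not share that gap in fat. It read 76.7, 82.9, 74.9 and 82.6 CPM in knockout fat, against 84.1, 82.6, 81.5 and 87.6 CPM in control fat, and mouse 138 was at the level of the other controls. Its log2 fold change was -0.08 (SE 0.08) with all mice and -0.09 (SE 0.07) without mouse 138.

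With TMM factors, Ostc was the 1 subunit whose groups did not overlap in fat with all mice. It read 12.6, 14, 11 and 13.1 CPM in knockout fat, against 17.3, 14.7, 16.2 and 16.5 CPM in control fat. The log2 fold change was -0.35 (SE 0.10), and also -0.35 without mouse 138. By total counts alone the Ostc groups overlapped, with 21.7 CPM in knockout mouse 958 and 21.4 CPM in control mouse 137. In muscle the Ostc difference had the opposite sign and its groups overlapped. Rpn2 read 138, 136, 126 and 138 CPM in knockout fat, against 143, 146, 103 and 156 CPM in control fat, where only mouse 138 lay under the knockout values. Its log2 fold change without mouse 138 was -0.14 (SE 0.07).

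For the remaining shared subunits in fat, Rpn1 ranged from 52.5 to 69.2 CPM in knockout mice and from 61.0 to 76.8 CPM in control mice, highest in mouse 138. Ddost ranged from 51.5 to 62.0 CPM in knockout fat and from 54.1 to 64.2 CPM in control fat, lowest in mouse 138. Dad1 was lowest in mouse 958 among the knockout libraries, at 19.6 CPM where the others had 23.4 to 23.9 CPM, against 18.1 CPM in control mouse 138 and 23.1 to 24.3 CPM in the other controls. Both genotypes thus held 1 low Dad1 library.

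Among the subunits of separate forms, Krtcap2 ranged from 7.73 to 11.1 CPM in knockout fat and from 9.77 to 10.9 CPM in control fat. Magt1 ranged from 46.4 to 57.2 CPM in knockout fat and from 45.0 to 57.0 CPM in control fat. Tusc3 read 10.1, 11.4, 7.73 and 10.6 CPM in knockout fat, against 10.6, 11.3, 24.5 and 12.3 CPM in control fat, with the 24.5 CPM in mouse 138. Leaving out that library moved the log2 fold change of Tusc3 from -0.56 to -0.20.

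Without mouse 138, 10 of 10 subunits had a log2 fold change below 0 in fat, where 48.4% of all genes did, and the 9 other than Stt3b lay between -0.35 and -0.05. With all mice, 9 of 10 were below 0, where 52.1% of all genes were. Neither count held under every alternative. With total counts only, Rpn1 without mouse 138 was at 0.0005, and Dad1 with all mice was at -0.0199. The choice itself fixed that Stt3b was past the adjusted threshold without mouse 138, so this count, 1 of 10 beside 0.0362% of all genes, is no result. With all mice 0 of 10 were past it, beside 0.00613% of all genes. Without control mouse 131 as well, which left 2 control libraries, the log2 fold change of Stt3b was -0.88 and no longer past it. The next subunit by log2 fold change, Ostc at -0.35, lay outside the threshold. With TMM factors, groups did not overlap, with knockout below control, for 3 of 10 subunits without mouse 138, beside 8.44% of all genes. With all mice this held for 1 of 10, beside 3.01% of all genes. These counts come from the contrast that chose the genes. By total counts alone, the Ostc groups overlapped in both. Those of Rpn2 without mouse 138 also did, with 214 CPM in knockout mouse 29 and 192 CPM in control mouse 131.

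Of the marker sums given here for the same fat libraries, those of plasma cells did not overlap between genotypes and the others did. The plasma cell markers summed to 93.3 to 130 CPM in knockout fat, against 163 to 269 CPM in control fat, and 4 of the 4 tested were lower. Of all genes, 52.1% had a log2 fold change below 0 in fat. B cell markers summed to 1.77 to 3.28 CPM in knockout fat and 1.36 to 3.08 CPM in control fat, with 1 of 2 tested lower. The 7 macrophage markers summed to 453 to 934 CPM in knockout fat and to 639 to 948 CPM in control fat, and 7 of 7 were lower. The 6 skeletal muscle markers summed to 1146 to 16420 CPM in knockout fat, against 1542 to 8394 CPM in control fat, and 6 of 6 were higher. In muscle, 7 of 7 macrophage markers were higher, with sums of 75.7 to 105 CPM in knockout mice and 50.3 to 75.3 CPM in control mice. So were 4 of 4 fibroblast markers (491 to 603 CPM in knockout muscle, 420 to 516 CPM in control muscle) and 3 of 3 endothelial markers (184 to 205 CPM in knockout muscle, 148 to 212 CPM in control muscle). Of these sums in muscle, those of macrophages did not overlap between genotypes, by a small margin, and the others did. Of the individual markers, 0 passed the adjusted threshold of edgeR in any of these comparisons, beside 0.0141% of all genes in muscle and 0.00613% in fat. Their part in the levels of Stt3b and Ostc was not tested. In bulk tissue, fewer cells of a type and less RNA per cell cannot be told apart.

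**Figure D2:**
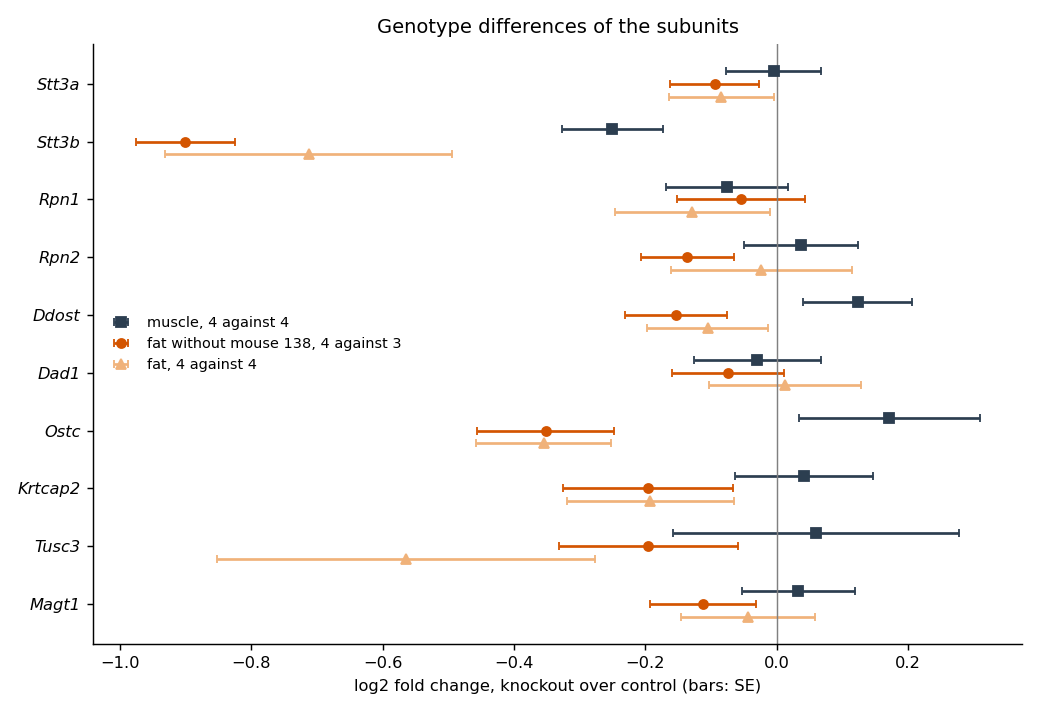
Log2 fold change of knockout over control for each subunit in muscle (4 mice against 4), in fat without mouse 138 (4 against 3) and in fat (4 against 4), with bars for 1 SE. Stt3b lies at -0.25 in muscle, -0.90 in fat without mouse 138 and -0.71 in fat, and the other subunits without mouse 138 lie between -0.35 and -0.05 in fat.

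Muscle and fat were compared next, a contrast that had no part in choosing the genes. With TMM factors, 8 of 10 subunits passed edgeR's adjusted threshold for muscle over fat, 2 higher and 6 lower, where 79.6% of all genes passed, 35.7% higher and 44% lower. That share is close to the background. This test did not pair the libraries of 1 mouse, and with mouse as a replicate block 8 of 10 passed as well. The median log2 fold change of the 10 was -0.70, against -0.16 over all genes tested.

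Both catalytic subunits were lower in muscle under each scaling tried. Stt3a covered 40.7 to 44.5 CPM in muscle, below its 74.9 to 87.6 CPM in fat, with no overlap (log2 fold change -0.93, SE 0.04, adjusted p = 2.38e-11, edgeR). Stt3b averaged 114 ± 12.4 CPM over the muscle libraries and 203 ± 70.5 CPM over those of fat (SD, n = 8 each), lower in muscle in 8 of 8 mice (log2 fold change -0.80, SE 0.12, adjusted p = 1.28e-05, edgeR). Fat values of Stt3b fell into the ranges given above for each genotype.

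Of the shared subunits, Rpn2 averaged 74.4 ± 6.68 CPM over the muscle libraries and 136 ± 15.8 CPM over those of fat (SD, n = 8 each, with log2 fold change -0.87, SE 0.08, adjusted p = 1.20e-07, edgeR). Ddost averaged 33.3 ± 2.75 CPM in muscle and 58.6 ± 4.77 CPM in fat (log2 fold change -0.82, SE 0.06, adjusted p = 3.98e-09, edgeR). Dad1 averaged 14.8 ± 0.88 CPM in muscle and 22.5 ± 2.36 CPM in fat (log2 fold change -0.60, SE 0.07, adjusted p = 1.57e-06, edgeR). All 3 were lower in muscle in every mouse. Rpn1 departed from them, with 61.9 ± 6.57 CPM in muscle and 64.5 ± 7.14 CPM in fat and a log2 fold change of -0.06 (SE 0.08, adjusted p = 0.499, edgeR).

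Subunits of the separate forms divided with TMM factors, and all were lower in muscle with total counts alone. Tusc3 averaged 3.65 ± 0.78 CPM over the muscle libraries and 12.3 ± 5.09 CPM over those of fat (SD, n = 8 each), 3.31-fold lower in muscle (log2 fold change -1.73, SE 0.19, adjusted p = 5.99e-07, edgeR). Krtcap2 averaged 12.4 ± 0.79 CPM in muscle and 9.75 ± 1.20 CPM in fat, higher in muscle in 8 of 8 mice (log2 fold change 0.35, SE 0.08, adjusted p = 0.00056, edgeR). Magt1 averaged 59.8 ± 5.32 CPM in muscle and 52.3 ± 4.83 CPM in fat, higher in 7 of 8 mice (log2 fold change 0.19, SE 0.07, adjusted p = 0.0232, edgeR). The Magt1 call was lost without mouse 138 (0.13, adjusted p = 0.0705) and without a filter on low counts (0.12, adjusted p = 0.237), both by edgeR. Ostc averaged 13.6 ± 2.24 CPM in muscle and 14.4 ± 2.17 CPM in fat (log2 fold change -0.08, SE 0.09, adjusted p = 0.468, edgeR).

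Krtcap2 and Magt1 changed sides of 0 with the scaling, and the other 8 subunits lay below 0 with TMM factors and with total counts. With total counts alone, without TMM factors, the median of all genes moved from -0.16 to -1.36 on the log2 scale, a shift of -1.20, and all 10 subunits passed as lower in muscle, where 79.9% of all genes did. Krtcap2 and Magt1 then had log2 fold changes of -0.86 and -1.01. Relative to the median of all genes, Krtcap2 lay 0.51 above it with TMM factors and 0.50 above it with total counts, and Magt1 lay 0.35 above it in each. Stt3a lay -0.78 from the median in each, Stt3b -0.64 and -0.62, and Tusc3 -1.57 and -1.61. Rpn1 and Ostc lay within 0.10 of it.

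**Figure D3:**
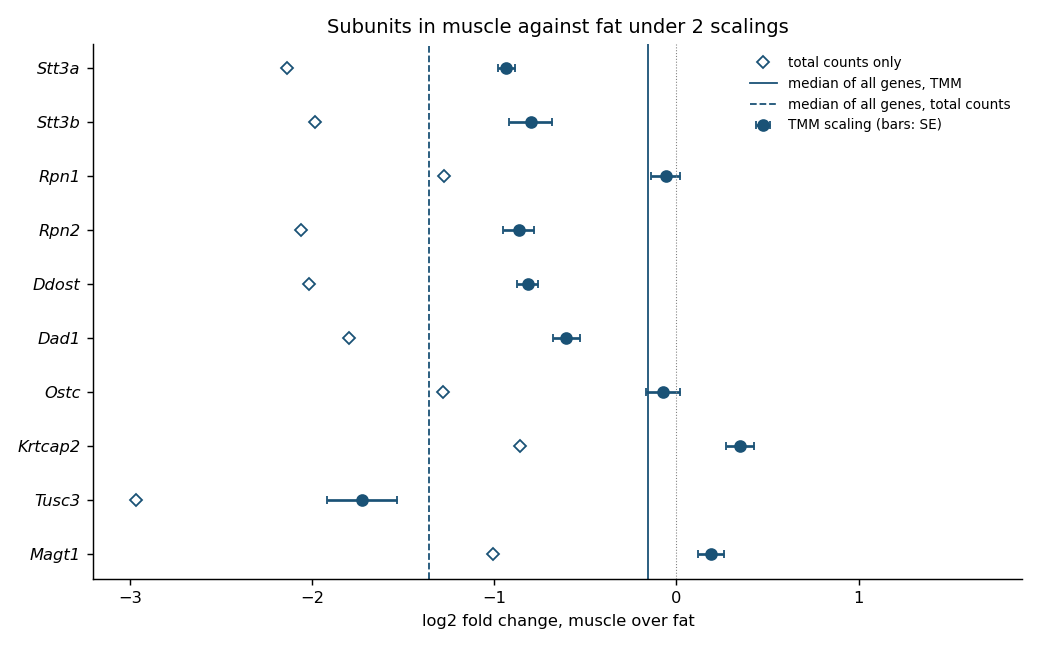
Log2 fold change of muscle over fat for each subunit with TMM scaling (filled, bars 1 SE) and with total counts only (open), with the median of all genes under each scaling as a solid and a dashed line at -0.16 and -1.36. Krtcap2 and Magt1 lie right of the median line under each scaling, and Tusc3 lies farthest left.

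Ratios within a library do not depend on scaling, so the alternative subunits were also set against each other per kb of exon. The size of a ratio depends on the gene lengths used, and its log2 differences between libraries do not. The Tusc3 to Magt1 ratio averaged 0.0831 ± 0.0162 over muscle libraries and 0.329 ± 0.169 over those of fat (SD, n = 8 each). It was lower in muscle in 8 of 8 mice, by a mean log2 difference of -1.90 ± 0.54 (SD, n = 8), which passed a two-sided exact sign-flip permutation test over mice (p = 0.00781, the smallest possible, 0.0156 adjusted over 2 ratios). The value without mouse 138, whose fat ratio was 0.741, was -1.75. Fat groups averaged 0.263 ± 0.0341 in knockout mice (SD, n = 4) and 0.279 ± 0.0183 in control mice without mouse 138 (SD, n = 3).

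The Stt3b to Stt3a ratio averaged 5.64 ± 0.67 over muscle libraries and 5.24 ± 1.67 over those of fat (SD, n = 8 each). It was higher in muscle in all 4 knockout mice and in control mouse 138, and lower in muscle in control mice 131, 137 and 11. This split follows the fat levels of Stt3b by which the genes were chosen, so it restates that choice. The mean log2 difference of 0.16 ± 0.38 (SD, n = 8) did not pass the exact sign-flip permutation test (p = 0.281). Between genotypes in muscle the ratio averaged 5.16 ± 0.30 in knockout mice and 6.12 ± 0.58 in control mice (SD, n = 4 each), a log2 difference of -0.24 that did not pass the two-sided exact permutation test (p = 0.0571, 0.114 adjusted over 2 ratios). In fat, given without a test, it averaged 4.13 ± 0.47 in knockout mice (SD, n = 4) and 7.20 ± 0.42 in control mice without mouse 138 (SD, n = 3), and mouse 138 read 3.79. The Tusc3 to Magt1 ratio in muscle averaged 0.0847 ± 0.0215 in knockout mice and 0.0814 ± 0.0120 in control mice (SD, n = 4 each; log2 difference 0.03, exact permutation p = 0.857).

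**Figure D4:**
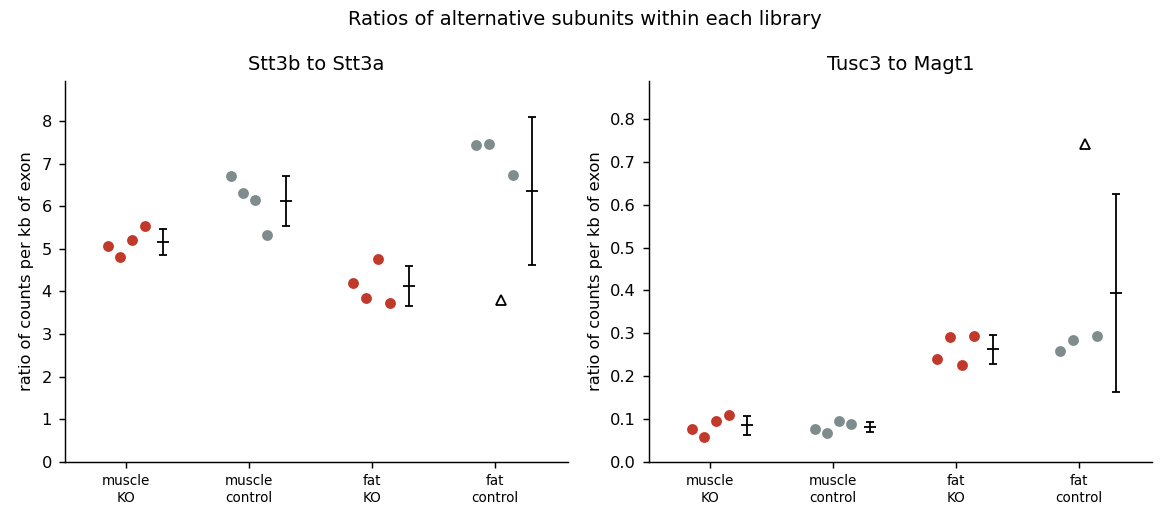
Ratio of counts per kb of exon of Stt3b to Stt3a (left) and of Tusc3 to Magt1 (right) in each library, with knockout in red, control in grey, mean ± SD beside each group of 4 and the fat library of control mouse 138 as an open triangle. The 8 muscle libraries lie between 0.0589 and 0.108 for Tusc3 to Magt1, under every fat library.

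Compared per kb of exon, Stt3b had the highest level of the 10 in every group, at 24.6 ± 0.69 CPM per kb in knockout muscle, 29.2 ± 2.46 in control muscle, 36.5 ± 2.39 in knockout fat and 59.7 ± 16.9 in control fat (SD, n = 4 each). Rpn2 and Ddost came next, at 17.1 ± 1.13 and 16.4 ± 1.37 CPM per kb in knockout muscle, a gap within their spread. Tusc3 was lowest in every group, at 1.09 ± 0.24 CPM per kb in knockout muscle and 4.28 ± 1.91 CPM per kb in control fat. Neither Rpn1 and Magt1 (13.4 ± 1.77 and 13 ± 1.15 CPM per kb) nor Ostc and Stt3a (5.28 ± 0.65 and 4.78 ± 0.16 CPM per kb) in knockout muscle were farther apart than their spread. With the length of the longest protein-coding transcript instead, added after seeing the data, Rpn2 came first in knockout muscle (27.4 CPM per kb, against 24.6 for Stt3b) and knockout fat (48.8 against 36.5), and Dad1 took the last place in fat. In knockout fat Dad1 and Tusc3 were then at 6.48 and 6.5 CPM per kb, a gap within their spread. Rpn2 shares 242 exon bases with Mroh8 and Krtcap2 shares 239 with Trim46, each on the opposite strand, and Rpn1 shares 131 with Mir6376, so counts there could be split or mixed.

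The rest of the N-glycosylation pathway was read from 4 lists of genes, with TMM factors unless stated. For genotype, 0 genes of any list passed in muscle, in fat or in fat without mouse 138 by edgeR. Of all genes, 0.0141%, 0.00613% and 0.0362% passed in these 3 comparisons. For muscle over fat, the 3 further subunit genes of the complex gave Tmem258, a part of both forms, as higher (log2 fold change 0.43, SE 0.08, adjusted p = 7.71e-05, edgeR), Ost4, a mini-subunit that stabilises the complex in yeast, as lower (-0.19, SE 0.07, adjusted p = 0.0164, edgeR), and Mlec, a lectin that associates with the ribophorins, did not pass (-0.07, SE 0.12). Of 23 genes that build dolichol and the glycan on it, 2 were higher and 16 lower, with a median of -0.60. Among them Mpdu1, which aids the use of dolichol-linked sugars, averaged 5.29 ± 0.69 CPM over the muscle libraries and 28.6 ± 6.77 CPM over those of fat (SD, n = 8 each), Srd5a3, the polyprenol reductase, 2.57 ± 0.39 CPM in muscle and 10.6 ± 1.63 CPM in fat, and Alg6, a glucosyltransferase, 19.4 ± 1.6 CPM in muscle and 8.05 ± 1.05 CPM in fat.

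Of 15 genes that trim the new glycan and check folding, 4 were higher and 10 lower in muscle, with a median of -0.77. They included Ganab, the catalytic glucosidase II subunit, at -1.26, and Os9, a lectin of degradation, at -1.91. Of 17 genes of the translocon and signal peptidase, 8 were higher and 6 lower, with a median of -0.03. Sec61a1, the pore subunit, was at -1.6 and Spcs2, a signal peptidase subunit, at 0.62. These counts stand beside the 79.6% of all genes that passed, and the median of -0.16 over all genes. With total counts alone, 0 genes of any list were higher, and 22 of 23, 15 of 15 and 17 of 17 were lower. Of all genes, 79.9% passed as lower there, and the shares in these lists were higher. That difference was not tested. Tmem258 was then at -0.78, Spcs2 at -0.59 and Alg6 at 0.06, which no longer passed. Relative to the median of all genes under that scaling, the medians of these 3 lists were -0.43, -0.62 and 0.12.

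Stt3b (chr9:115242581-115310421, minus strand, GRCm38) lies 4.03 Mb from Myd88 on the same chromosome, and the genes around it were described by position. Within 1 Mb there were 17 protein-coding genes, of which 11 were tested in muscle and 11 in fat. By edgeR 0 passed, beside 0.0141% of all genes in muscle and 0.00613% in fat. Osbpl10, which encodes an oxysterol-binding protein family member and ends 10.4 kb from the end of Stt3b, read 1.10, 0.899, 0.911 and 1.43 CPM in knockout muscle, against 3.10, 1.95, 1.68 and 2.7 CPM in control muscle. The groups did not overlap, on 12 to 29 counts per library (log2 fold change -1.10, SE 0.27, adjusted p = 0.648, edgeR). In fat Osbpl10 read 0.377, 0.769, 0.547 and 0.849 CPM in knockout mice, against 0.974, 1.75, 1.83 and 0.796 CPM in control mice, with overlap (log2 fold change -1.07 with all mice and -0.87 without mouse 138). It was the 1 neighbour of 11 with all knockout libraries below all control libraries in muscle, beside 1.26% of all genes. The other 10 tested in muscle lay between -0.15 and 0.25. In fat without mouse 138 the other 10 tested, which include Cmtm8 (-0.98) and not Gadl1, lay between -0.98 and 0.07. There Crtap (-0.26), Dync1li1 (-0.14) and Gpd1l (-0.26), 3 of 11, had all knockout libraries below all control libraries, beside 8.44% of all genes. Stt3a is on the same chromosome at chr9:36729344-36767679, minus strand.

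**Figure D5:**
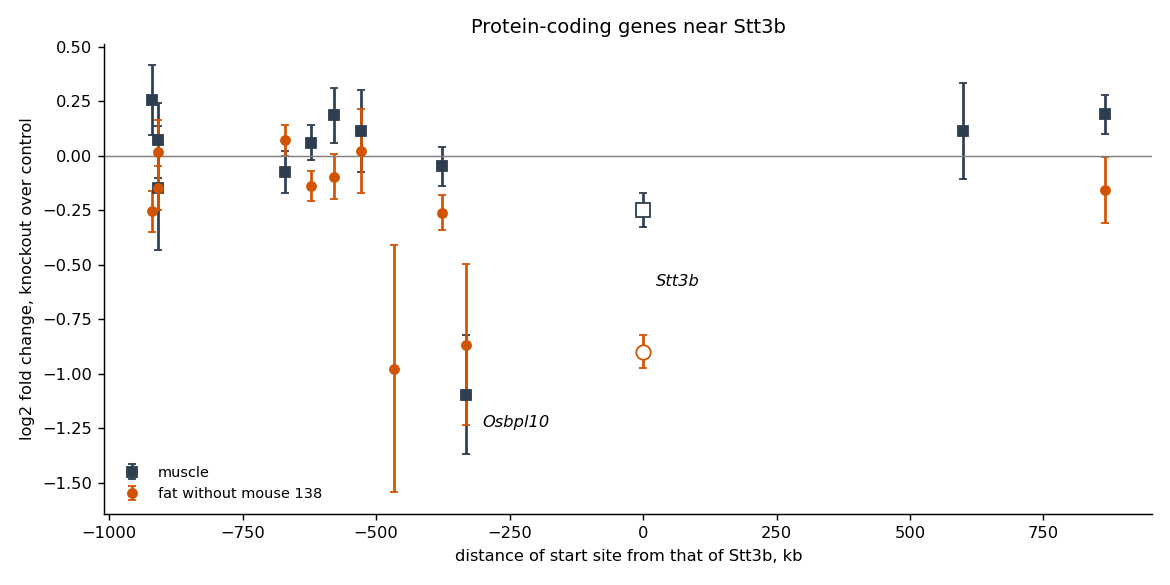
Log2 fold change of knockout over control (bars 1 SE) of the protein-coding genes tested within 1 Mb of Stt3b, against the distance of their start sites in kb, in muscle (squares) and fat without mouse 138 (circles), with Stt3b itself as open symbols at 0. Osbpl10 lies at -1.10 in muscle and -0.87 in fat.

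The pattern of Stt3b over libraries was compared with that of 9975 protein-coding genes with a mean of at least 5 CPM in fat, after centring each gene within each tissue, over the 15 libraries without the fat of mouse 138. The nearest by root mean square log2 difference were Tsc22d3, a glucocorticoid-induced leucine zipper gene, at 0.168, Dctn3, a dynactin subunit, at 0.189, and Ak3, a mitochondrial adenylate kinase, at 0.190, against a median of 0.348 over all genes. The 15 libraries include the fat ones by which Stt3b was chosen. A gene ranked near Stt3b therefore tends to share its genotype gap through the ranking itself, and the values that follow are a description. Tsc22d3 averaged 73.5 ± 6.10 CPM in knockout fat (SD, n = 4) and 125 ± 15.3 CPM in control fat without mouse 138 (SD, n = 3). In muscle it averaged 215 ± 28.3 CPM in knockout mice and 276 ± 36.1 CPM in control mice (SD, n = 4 each). Of the other 9 subunits, Krtcap2 and Rpn2 were nearest to Stt3b, each at 0.303, in places 1825 and 1835 among those genes. All of the 9 but Tusc3 (0.361) were nearer than the median gene. The distance was not scaled for spread, so a gene that varies little can be near without following Stt3b. Whether these subunits share its pattern was not tested.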

How the data were processed

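RNA of red gastrocnemius muscle and visceral fat of 8 mice was sequenced from stranded, ribosomal RNA-depleted libraries, per the labels' protocols. The authors deposited raw counts of reads per Ensembl gene, 1 column for each of 16 libraries, unscaled. The tools listed per the submitters' processing notes, without role or order, are STAR (2.7.0f), featureCounts (1.6.3) and, for DESeq2, release 1.22.2, on build GRCm38. How strand and multimapping reads were handled, and which annotation release was used, was found in none of the sources used. Symbols, positions and exon lengths came from GENCODE M21, in which all 55536 identifiers were found. Each column matched 1 sample's label by name, and 0 were left over.

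Genotype was tested in each tissue, and muscle against fat over all 4 groups, by quasi-likelihood F tests in edgeR (version 4.0.16, R 4.3.3, TMM, filterByExpr, robust), with Benjamini-Hochberg adjustment over all genes tested and a threshold of 0.05. Standard errors were derived from F, as |log2 fold change| over its square root. DESeq2 1.42.0, limma 3.58.1 (voom), other scalings and filters, non-robust estimation, 1 fit of both tissues, mouse as replicate block, 0.5 added to each count, and leaving out each mouse were the alternatives. Scripts were tested on simulated data. Counting without molecular identifiers means that depth covers counting error only. The p-values weigh differences against the spread between these libraries, and the main test of muscle over fat did not pair those of 1 mouse. No 2 libraries of a group agreed within sampling noise (lowest chi-square per degree of freedom 7.49).

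The members and lists were chosen with earlier results of these data known. All 10 subunits, Myd88, up to 3 genes of each list with the smallest p among those past the threshold, 3 genes most like Stt3b, and its neighbours by position were to be named. Ost4, Tmem258 and Mlec make up the first list, and Mlec was named although it did not pass. Mice pair the tissues by their subject number. As a check, the deviations from the group means of muscle and fat correlated over 14602 genes at 0.12 to 0.17 in the knockout mice and at -0.03 to 0.02 in the control mice.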

Additional observations from a re-analysis of the deposited data

Results flagged for a closer look

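Of 48 groups of 4 libraries checked for an outlying library, 4 were flagged because the gap between an extreme library and its nearest neighbour took up most of the range of the group, beyond the critical value of Dixon's test for 4 samples. Chance flags about 1 in 20 groups. Control mouse 138 was low in fat for Stt3b (146 CPM, against 278 to 295 CPM in the other controls), high for Tusc3 (24.5 CPM, against 10.6 to 12.3 CPM) and high for the Tusc3 to Magt1 ratio (0.741). Dad1 in fat was low in knockout mouse 958 (19.6 CPM, against 23.4 to 23.9 CPM in the other knockout mice).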

How the results depend on the processing

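Of the 10 subunits, 0 passed for genotype in muscle under every alternative run, and 7 to 10 passed for muscle over fat. That number was 8 with mouse as a replicate block and 7 with the replicate block and without mouse 138. The replicate block was run for no other count. With it, edgeR's adjusted p was 3.57e-08 for Stt3a, 0.000176 for Stt3b and 0.0473 for Magt1, each larger than in the unpaired main test. In fat, the contrast by which the genes were chosen, the number of subunits past the threshold lay between 0 and 1 when each mouse was left out in turn, being 1 without mouse 138, which restates the choice of Stt3b. In fat without mouse 138, the number also lay between 0 and 1, being 0 without mouse 131 as well. Small log2 fold changes turned sign in muscle. Stt3a was at 0.0697 with total counts only, 0.0043 with no filter, 0.0019 in 1 fit of both tissues and 0.0248 without mice 131 and 11, an alternative added after seeing the data. Rpn1 was at 0.0023 and Dad1 at 0.0452 with total counts only, and Dad1 at 0.0081 and Krtcap2 at -0.0605 without mice 131 and 11. With each mouse left out in turn, Stt3a ranged from -0.0242 to 0.0159, Rpn2 from -0.0291 to 0.0982, Dad1 from -0.0669 to 0.0078, Krtcap2 from -0.0047 to 0.0865, Tusc3 from -0.0746 to 0.21 and Magt1 from -0.0266 to 0.0879 in muscle, the Tusc3 to Magt1 ratio from -0.0977 to 0.195, and Ostc for muscle over fat from -0.119 to 0.0415. Signs turned in fat too. With all mice, Dad1 was at -0.0199 with total counts only. When each mouse was left out, Dad1 ranged from -0.0745 to 0.0726 and Rpn2 from -0.136 to 0.034 there. In fat without mouse 138, Rpn1 was at 0.0005 with total counts only and at 0.0194 without mouse 960 as well. For muscle over fat with total counts only, Krtcap2 was at -0.86 and Magt1 at -1.01, where the scaling moved the median of all genes too. The cause of the other changes was not tested. Low counts limit Tusc3 and Osbpl10 in muscle.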
